A study of Mus musculus with 6 samples.

Results

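The genes described here are 9 genes of the transforming growth factor beta (TGF-beta) pathway, taken from the gene table by symbol: the ligand genes Tgfb1, Tgfb2 and Tgfb3, the receptor genes Tgfbr1, Tgfbr2 and Tgfbr3, and Tgfbi, Skil and Ltbp2, of which Tgfbi and Skil are known targets of the pathway. All 9 were found among the 21686 genes of the table, and all 9 passed the filter on low counts in each comparison. RNA came from MC3T3-E1 Subclone 14 cells, a cloned mouse osteoblast precursor line, in 3 groups of 2 libraries collected at 72 hours. The control group received PBS, the dexamethasone group received 10 µM dexamethasone, a synthetic glucocorticoid, and the dexamethasone + EPC-EVs group received 10 µM dexamethasone with 100 µg of extracellular vesicles from endothelial progenitor cells (EPC-EVs). No group received EPC-EVs without dexamethasone. By the labels, the dexamethasone + EPC-EVs group differed from dexamethasone by the vesicles and from control by both agents. The paper calls the 2 libraries of a group biological replicates, and the labels do not say whether they came from separate cultures, so p-values measure only the spread between these libraries.

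TGF-beta ligands are secreted in a latent form, held by their own propeptide and by latent TGF-beta binding proteins in the matrix, and are released by integrins and proteases. Active ligand binds the type II receptor encoded by Tgfbr2, which recruits and phosphorylates the type I receptor encoded by Tgfbr1, and the type I receptor phosphorylates SMAD2 and SMAD3, which enter the nucleus with SMAD4. Bone matrix is a large store of latent TGF-beta, and the pathway is known for its roles in the recruitment, proliferation and matrix production of osteoblast precursors.

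The libraries held between 5146760 and 6583735 counts in control and dexamethasone, and 12864009 and 13182014 counts in dexamethasone + EPC-EVs. Transcripts encoded by mitochondrial DNA took 5.55% to 8.62% of the counts in control and dexamethasone, and 0.465% and 0.727% in dexamethasone + EPC-EVs. Depth, this share and the group therefore moved together, and their parts cannot be told apart. All 10 osteoblast lineage markers of the list were detected in each group, but some of them at few counts. In a library, Alpl was counted 0 to 17, Bglap 0 to 83, Bglap2 6 to 46 and Ibsp 2 to 26 times. Sp7 was counted 260 times in dexamethasone + EPC-EVs replicate 1 and 6 to 46 times in the other libraries. Between dexamethasone + EPC-EVs and dexamethasone, Col1a1 (1.51) and Col1a2 (1.89) were higher and Spp1 (-1.06) and Phex (-1.92) lower on the log2 scale, all called by edgeR. The 6 endothelial markers in the table summed to between 1.57 and 5.91 CPM (counts scaled to the library total after TMM normalization over the 6 libraries) in every library, with Cdh5 and Emcn at 0 in control, Tek and Emcn at 0 in dexamethasone, and Cdh5 and Tek at 0 in dexamethasone + EPC-EVs. The 4 blood cell and macrophage markers summed to 11.8 to 12.2 CPM in control, 17.4 to 18.4 CPM in dexamethasone, and 18.8 and 53.2 CPM in dexamethasone + EPC-EVs, and Adgre1 was at 0 in control and in dexamethasone + EPC-EVs. The highest of these sums rested on Csf1r, at 36.3 CPM in dexamethasone + EPC-EVs replicate 2 and at 4.40 CPM or less in the other libraries, while Cd68 stood at 3.39 to 4.71 CPM without vesicles and at 2.83 and 1.62 CPM with them, and Lyz2 at 5.91 and 7.81 CPM in control, 9.57 and 13.8 CPM in dexamethasone and 11.6 and 15.3 CPM with vesicles. Of these markers Csf1r was called higher against control (log2 fold change 4.25, adjusted p = 0.0259 by edgeR). The part of such cells in the results was not tested. The 7 glucocorticoid receptor targets summed to 451 to 526 CPM in control, 429 to 436 CPM in dexamethasone and 771 to 1124 CPM in dexamethasone + EPC-EVs. Between dexamethasone and control none of the 6 tested was called by edgeR, with log2 fold changes of 0.27 for Fkbp5, 0.00074 for Per1, -0.09 for Tsc22d3, -0.10 for Klf9, -0.25 for Sgk1 and -0.44 for Dusp1, and Zbtb16 was at 0 in dexamethasone. These targets were thus not measurably higher in the dexamethasone libraries, and the groups are those of the labels. Between dexamethasone + EPC-EVs and dexamethasone, Tsc22d3 (2.40), Dusp1 (2.21), Sgk1 (0.75) and Fkbp5 (0.73) were called higher by edgeR. Per1 (0.08) and Klf9 (-0.19) were not called, and 20.9% of all genes were called higher. Why these targets were higher with the vesicles and not with dexamethasone alone was not tested.

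The bases before the RefSeq start sites of members that differed in a comparison are shown first, to place these genes beside their sequence. RefSeq promoters on GRCm38.p6, the build of the counts, were given for 6 of the 9 members, Tgfb1, Tgfb2, Tgfbr1, Tgfbr2, Tgfbi and Ltbp2. Capitals mark the short SMAD motif CAGAC and the GC box GGGCGG, on either strand. In 250 bases before the start, the SMAD motif was present in 42.2% and the GC box in 32.7% of 32851 RefSeq promoters.
Tgfb1, chr7:25686752-25687001, plus strand: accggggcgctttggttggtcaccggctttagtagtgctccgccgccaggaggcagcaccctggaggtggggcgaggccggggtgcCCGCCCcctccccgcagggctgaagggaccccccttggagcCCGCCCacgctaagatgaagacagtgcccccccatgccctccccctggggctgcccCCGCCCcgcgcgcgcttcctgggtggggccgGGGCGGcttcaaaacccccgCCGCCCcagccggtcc
Tgfbr1, chr4:47352972-47353221, plus strand: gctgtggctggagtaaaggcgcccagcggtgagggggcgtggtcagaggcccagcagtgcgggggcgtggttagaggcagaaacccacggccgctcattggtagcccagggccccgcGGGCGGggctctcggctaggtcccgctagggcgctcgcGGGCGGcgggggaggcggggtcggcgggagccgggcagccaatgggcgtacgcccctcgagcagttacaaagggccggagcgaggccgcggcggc
Tgfbr2, chr9:116175364-116175613, minus strand: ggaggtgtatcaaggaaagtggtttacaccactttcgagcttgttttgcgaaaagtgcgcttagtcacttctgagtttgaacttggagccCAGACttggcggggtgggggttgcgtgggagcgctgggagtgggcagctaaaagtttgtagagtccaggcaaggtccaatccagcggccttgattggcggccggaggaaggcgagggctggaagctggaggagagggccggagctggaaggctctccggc
Tgfbi, chr13:56609336-56609522, plus strand: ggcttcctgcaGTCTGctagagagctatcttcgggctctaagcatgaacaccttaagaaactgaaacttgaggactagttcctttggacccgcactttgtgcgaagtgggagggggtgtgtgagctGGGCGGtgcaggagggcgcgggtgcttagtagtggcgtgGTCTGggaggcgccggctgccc

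The Tgfb1 sequence held 5 GC boxes and no CAGAC, and the Tgfbr1 sequence held 2 GC boxes and no CAGAC. The Tgfbr2 sequence held 1 CAGAC and no GC box, and the Tgfbi sequence held 2 CAGAC and 1 GC box. For Tgfbi the 187 bases before the annotated transcripts are printed. Of the members not printed, Tgfb2 held 2 CAGAC and a TATAAA motif, which 12.4% of the promoters hold, Ltbp2 held 2 CAGAC and 2 GC boxes, and the window of a further RefSeq start of Tgfbr1 inside the gene held 1 CAGAC. The palindromic SMAD motif GTCTAGAC and the AP-1 motif TGANTCA, each read on both strands, were not found in the windows of these 6 genes, against 0.167% and 6.75% of all promoters. The matches are letters in a window and were not tested for binding.

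Per length, Tgfbr3 was the most abundant of the 9 genes in 5 of the 6 libraries and Ltbp2 the least in all 6. In dexamethasone + EPC-EVs replicate 1, Tgfb3 at 27.1 FPKM stood above Tgfbr3 at 26.1 FPKM. In control, FPKM (counts divided by gene length and library total, as deposited) was 43.3 and 46.7 for Tgfbr3, 24.0 and 23.7 for Tgfb3, 22.7 and 19.7 for Tgfb2, 22.1 and 21.1 for Tgfbr1, 15.9 and 13.1 for Tgfb1, and 12.6 and 13.1 for Tgfbr2. Tgfb2 and Tgfbr1 overlapped in these values, and Tgfb1 and Tgfbr2 met at 13.1 FPKM, so neighbours within each pair did not differ beyond their spread. Tgfbi at 6.54 and 4.89 FPKM overlapped Skil at 4.19 and 6.97 FPKM, and Ltbp2 stood at 0.299 and 0.451 FPKM. In dexamethasone + EPC-EVs the order differed, with Tgfbr1 at 7.06 and 4.57 FPKM below Tgfbr2 at 20.8 and 18.2 FPKM. The values in CPM are not divided by gene length and compare libraries for 1 gene. Over the 6 libraries, the spread from the lowest to the highest log2 CPM ran from 0.18 for Tgfb3 to 2.25 for Tgfbr1.

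**Figure D1:**
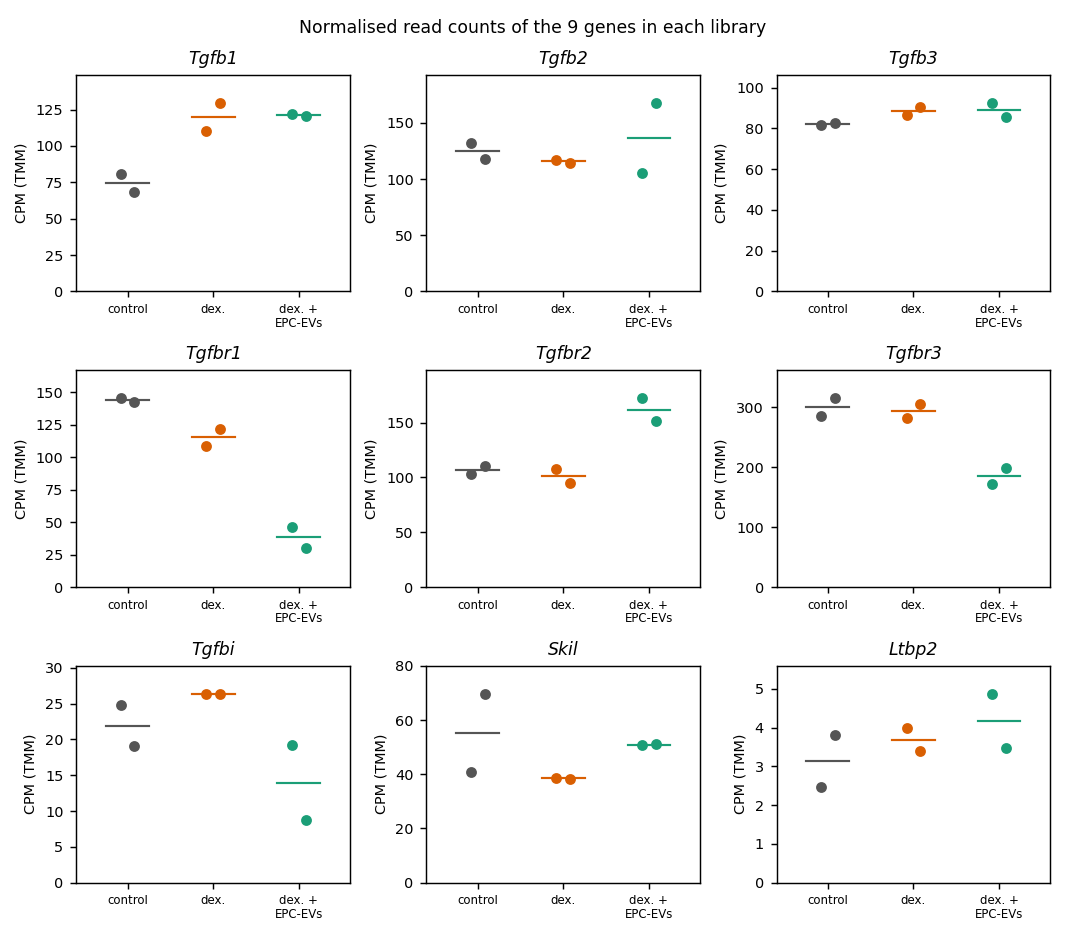
Normalised read counts (CPM after TMM normalization, linear axes from 0) of the 9 genes, with 1 point for each library and a line at the mean of the 2 libraries of a group; dex. is dexamethasone. Tgfbr1 lies at 46.6 and 30.4 CPM in the dexamethasone + EPC-EVs libraries and at 109 CPM or more in the other libraries.

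The first comparison asked how the pathway genes stood after dexamethasone alone. None of the 9 genes was called between dexamethasone and control at an adjusted p under 0.05, by the quasi-likelihood test of edgeR with p-values adjusted over 12879 genes after Benjamini and Hochberg. Of all genes tested, 0.0544% were called. Tgfb1 alone had an unadjusted p under 0.05, as had 10.9% of all genes, and DESeq2 and limma also called 0 of the 9. None of the 9 passed the study's own threshold, an unadjusted p under 0.05 with a log2 fold change beyond 1.5, which 1.41% of all genes passed. Tgfb1, Tgfb2, Tgfb3, Tgfbr1, Tgfbi and Skil, 6 of the 9, did not overlap between the groups, against 43.9% of all genes. Each pair of the 3 comparisons shares 2 libraries, so their values are given side by side and are not independent of each other.

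Of the ligands, Tgfb1 (ENSMUSG00000002603.15, chr7:25687002-25705077, plus strand), the best known ligand of the family, was read at 80.5 and 68.3 CPM in control and 110 and 130 CPM in dexamethasone. Both dexamethasone libraries lay above both control libraries. The log2 fold change was 0.68 ± 0.19 (SE, 95% interval 0.26 to 1.11, unadjusted p = 0.00458, adjusted p = 0.291 by edgeR), which did not pass the threshold. Without control replicate 1 the gene was called, with a log2 fold change of 0.81 and an adjusted p of 0.00173, but then 2200 genes in all were called in place of 7, in a fit that has a single control library and takes the spread from the dexamethasone pair. The fold changes of this comparison followed the GC content of the transcripts, with a median of -0.23 in the lowest and 0.37 in the highest of 5 equal groups of genes, and with the trend on GC content and length removed Tgfb1 had 0.39 (adjusted p = 0.492 by edgeR). Tgfb2 (ENSMUSG00000039239.14, chr1:186622792-186705989, minus strand) stood at 132 and 118 CPM in control and 117 and 114 CPM in dexamethasone, with a log2 fold change of -0.12 (95% interval -0.49 to 0.26). Tgfb3 (ENSMUSG00000021253.7, chr12:86056745-86079041, minus strand) stood at 81.8 and 82.5 CPM in control and 86.4 and 90.3 CPM in dexamethasone, with a log2 fold change of 0.10 (95% interval -0.31 to 0.51). The dexamethasone libraries of Tgfb2 lay just below and those of Tgfb3 just above the control libraries, by less than the test could resolve.

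Of the receptors, Tgfbr1 (ENSMUSG00000007613.15, chr4:47353222-47414931, plus strand), the type I kinase, was read at 145 and 142 CPM in control and 109 and 121 CPM in dexamethasone, lower in both dexamethasone libraries. Its log2 fold change was -0.32 ± 0.17 (SE, adjusted p = 0.510 by edgeR). Tgfbr2 (ENSMUSG00000032440.13, chr9:116084293-116175360, minus strand), the type II kinase, was read at 103 and 111 CPM in control and 107 and 95.2 CPM in dexamethasone, and Tgfbr3 (ENSMUSG00000029287.14, chr5:107106570-107289629, minus strand), betaglycan, which presents ligand to the kinases, at 286 and 315 CPM and at 282 and 306 CPM. These groups overlapped for both genes, with log2 fold changes of -0.09 (95% interval -0.48 to 0.31) for Tgfbr2 and -0.03 (95% interval -0.37 to 0.30) for Tgfbr3.

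Of the target and matrix genes, Skil (ENSMUSG00000027660.16, chr3:31095058-31122577, plus strand), which encodes the SMAD corepressor SnoN, was read at 40.9 and 69.7 CPM in control and 38.7 and 38.2 CPM in dexamethasone. The control libraries differed from each other by more than control replicate 1 differed from dexamethasone. The log2 fold change was -0.53 ± 0.28 (SE, adjusted p = 0.518 by edgeR), and it was called without control replicate 1 (-0.86, adjusted p = 0.00617), whereas without control replicate 2 it was -0.08. Tgfbi (ENSMUSG00000035493.10, chr13:56609523-56639562, plus strand), which encodes a secreted matrix adhesion protein, was read at 24.8 and 19.0 CPM in control and 26.4 CPM in both dexamethasone libraries, with a log2 fold change of 0.26 (95% interval -0.41 to 0.93). Ltbp2 (ENSMUSG00000002020.15, chr12:84783212-84876532, minus strand) encodes a member of the latent TGF-beta binding protein family that, unlike its relatives, is not known to bind latent TGF-beta. It was counted only 15 and 19 times in control and 27 and 23 times in dexamethasone, and its interval, -1.60 to 2.05 on the log2 scale, shows that a change of several fold was not detectable at this depth.

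**Figure D2:**
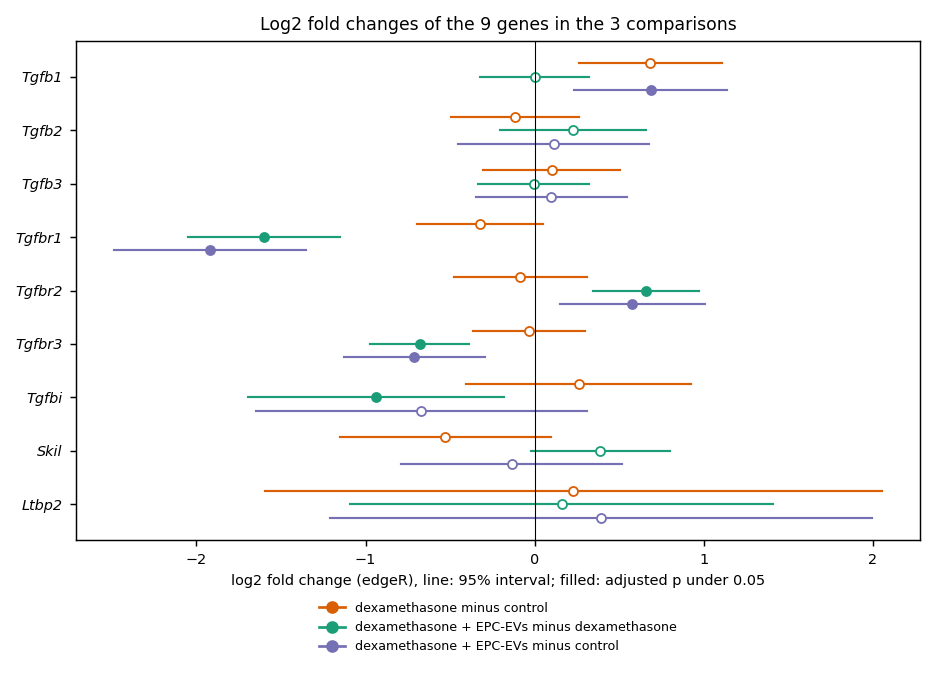
Log2 fold changes of the 9 genes in the 3 comparisons (points), with 95% intervals from edgeR (lines), positive where the group named first was higher; filled points had an adjusted p under 0.05 over all genes tested. No point is filled between dexamethasone and control, and the Tgfbr1 points of the comparisons with EPC-EVs stand at -1.60 and -1.92.

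The second comparison set dexamethasone + EPC-EVs against dexamethasone, groups that by the labels differ in the vesicles. These groups also differed in depth and in mitochondrial share, and these parts cannot be told apart. Of the 9 genes 4 were called, Tgfbr2 higher and Tgfbr1, Tgfbr3 and Tgfbi lower in dexamethasone + EPC-EVs, with the 3 receptors among them. The background was 39.8% of 13556 genes, 20.9% higher and 18.9% lower, and the groups did not overlap for 5 of the 9 (these 4 and Skil) against 72.4% of all genes. The count of calls lay near the share over all genes, and the count without overlap lay below its share. The median log2 fold change of the 9 genes was -0.00068, beside 0.01 over all genes. In RNA from whole cultures, fewer cells of a type and less RNA per cell cannot be told apart. The fold changes also followed base composition. In 5 equal groups of genes ordered by the GC content of the longest transcript, the median log2 fold change ran from -0.72 in the lowest to 0.72 in the highest. Many results are therefore followed by their value with the trend on GC content and length removed, and the part of the trend was not tested beyond these values.

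Tgfbr1 differed the most. It was read at 109 and 121 CPM in dexamethasone and 46.6 and 30.4 CPM in dexamethasone + EPC-EVs, and both vesicle libraries lay far below both dexamethasone libraries. The log2 fold change was -1.60 ± 0.21 (SE, 95% interval -2.05 to -1.15, adjusted p = 0.000116 by edgeR), a level 0.330 times that in dexamethasone. It was the only member past the study's own threshold, which 14.2% of all genes passed. The call held in 15 of 15 alternatives, but the GC content of its transcript, 41.0%, falls in the group with the median of -0.72. With the trend removed the difference fell to a log2 fold change of -0.87 (adjusted p = 0.00815 by edgeR). Tgfbi (-1.28) and Skil (1.13) then differed more.

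Tgfbr2 was read at 107 and 95.2 CPM in dexamethasone and 172 and 152 CPM in dexamethasone + EPC-EVs, higher in both vesicle libraries. The log2 fold change was 0.66 ± 0.14 (SE, 95% interval 0.34 to 0.97, adjusted p = 0.00368 by edgeR). Its transcript has 49.6% GC, close to the median of the table, 48.72%, and its value with the trend removed was 0.67. Tgfbr3 was read at 282 and 306 CPM in dexamethasone and 173 and 199 CPM in dexamethasone + EPC-EVs. The groups did not overlap, and the log2 fold change was -0.68 ± 0.13 (SE, 95% interval -0.97 to -0.39, adjusted p = 0.00200 by edgeR), with -0.62 after the trend was removed. Tgfbr3 overlaps 4 other annotated genes, some of them on the same strand, and its counts are less certain for that reason. The calls of Tgfbr2 and Tgfbr3 were lost in 1 of 15 alternatives each, without dexamethasone replicate 2 (adjusted p = 0.0681 and 0.0519). Without that library, Tgfbr1 was the only member called.

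The receptors therefore changed in different directions, and their proportions shifted. The ratio of Tgfbr2 to Tgfbr1 FPKM, a measure chosen after its values were seen and given with no test, was 0.569 and 0.622 in control, 0.788 and 0.626 in dexamethasone, and 2.95 and 3.99 in dexamethasone + EPC-EVs. Tgfbr1 was the more abundant transcript of the pair in all 4 libraries without vesicles and the less abundant in both libraries with them. The ratio carries the GC trend, and with the trend removed the log2 fold changes of -1.60 for Tgfbr1 and 0.66 for Tgfbr2 behind it were -0.87 and 0.67. Tgfbr1 made up 22.8% and 24.1% of the FPKM of the 3 receptor genes in dexamethasone, and 13.1% and 8.67% in dexamethasone + EPC-EVs. The receptor sum itself was 75.2 and 79.4 FPKM in dexamethasone and 54.0 and 52.7 FPKM in dexamethasone + EPC-EVs, and Tgfbr3 remained the most abundant receptor in every library.

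**Figure D3:**
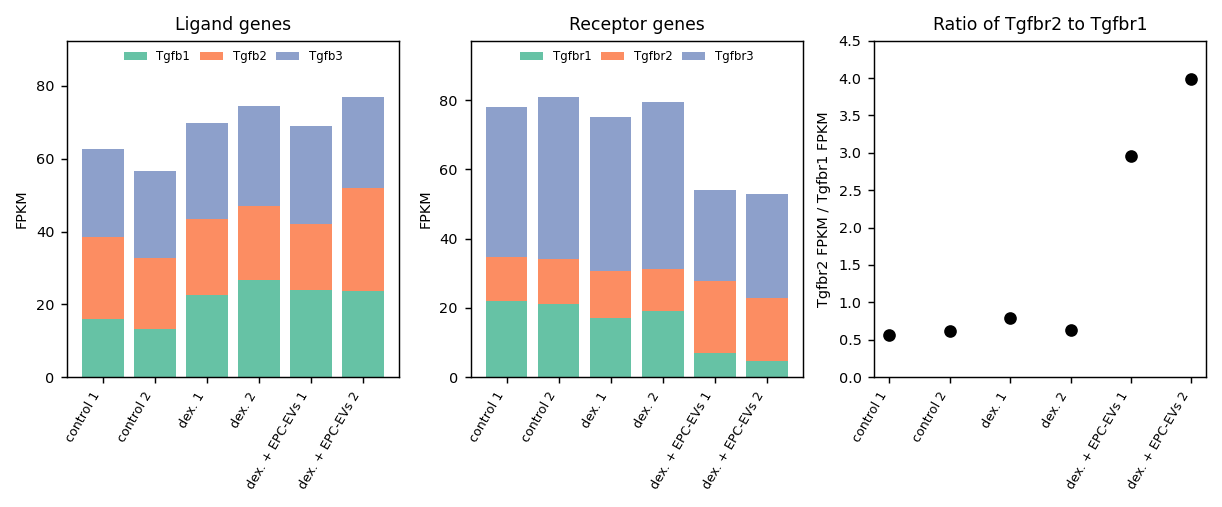
Deposited FPKM of the 3 ligand genes and of the 3 receptor genes stacked for each library (left and middle, linear axes from 0), and the ratio of Tgfbr2 to Tgfbr1 FPKM (right); dex. is dexamethasone. The ratio lies between 0.569 and 0.788 in the 4 libraries without EPC-EVs and at 2.95 and 3.99 in the others.

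The ligands showed no called difference. Tgfb1 was read at 110 and 130 CPM in dexamethasone and 122 and 121 CPM in dexamethasone + EPC-EVs, so the vesicle libraries lay between the dexamethasone libraries (log2 fold change -0.00068, 95% interval -0.32 to 0.32). Tgfb3 was read at 86.4 and 90.3 CPM in dexamethasone and 92.6 and 85.8 CPM in dexamethasone + EPC-EVs, again overlapping (log2 fold change -0.01, 95% interval -0.34 to 0.32). Tgfb2 was read at 117 and 114 CPM in dexamethasone and 106 and 168 CPM in dexamethasone + EPC-EVs, where replicate 2 stood above and replicate 1 below the dexamethasone libraries. Its log2 fold change of 0.22 (95% interval -0.21 to 0.66) became 0.54 and was called without dexamethasone + EPC-EVs replicate 1 (adjusted p = 0.00803), and was -0.13 without replicate 2. The log2 fold changes after removal of the GC trend were -0.26 for Tgfb1, 0.39 for Tgfb2 and -0.31 for Tgfb3, and none was called. The 3 ligands together summed to 69.7 and 74.5 FPKM in dexamethasone and 69.1 and 77.0 FPKM in dexamethasone + EPC-EVs.

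Tgfbi was read at 26.4 CPM in both dexamethasone libraries and at 19.2 and 8.72 CPM in dexamethasone + EPC-EVs, lower in both vesicle libraries but with a wide gap between them. The log2 fold change was -0.94 ± 0.35 (SE, 95% interval -1.69 to -0.18), and its adjusted p of 0.0493 by edgeR lay just under the threshold. The call was kept in 8 of 15 alternatives. It was lost under DESeq2 (adjusted p = 0.0614) and limma (adjusted p = 0.0603), with all 6 libraries in one fit (adjusted p = 0.0888), after thinning to the smallest library total (adjusted p = 0.0556), without either dexamethasone library (adjusted p = 0.184 and 0.191), and without dexamethasone + EPC-EVs replicate 2, where the log2 fold change was -0.46. Without dexamethasone + EPC-EVs replicate 1 it was -1.60, and with the GC trend removed it was -1.28. Skil was read at 38.7 and 38.2 CPM in dexamethasone and 50.6 and 51.3 CPM in dexamethasone + EPC-EVs. Its libraries lay close together within each group and did not overlap between groups, yet the log2 fold change of 0.39 ± 0.19 (SE, adjusted p = 0.123 by edgeR) was not called. Its transcript has 41.0% GC, the same as that of Tgfbr1, and with the trend removed Skil was called at 1.13 (adjusted p = 0.000943). Ltbp2 was counted 27 and 23 times in dexamethasone and 62 and 45 times in the deeper dexamethasone + EPC-EVs libraries, 3.98 and 3.39 CPM against 4.87 and 3.47 CPM, with overlapping groups and an interval of -1.09 to 1.41.

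**Figure D4:**
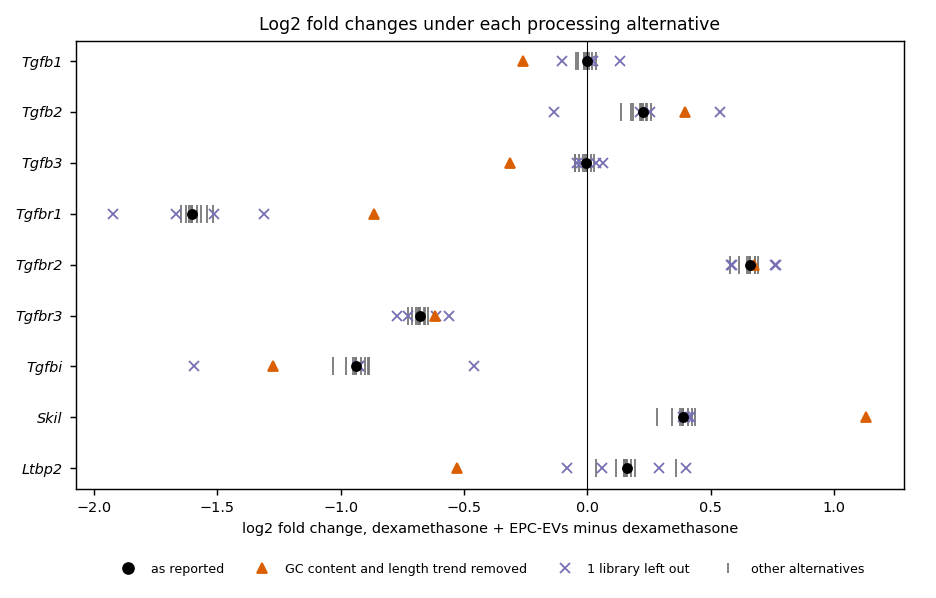
Log2 fold change of each of the 9 genes between dexamethasone + EPC-EVs and dexamethasone as reported (circles), with the trend on GC content and length removed (triangles), with 1 library left out (crosses), and under the other processing alternatives (bars). Tgfbr1 stays below 0 throughout and moves from -1.60 to -0.87 with the trend removed, and Skil moves from 0.39 to 1.13.

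The other genes of the pathway were read from 5 lists of 63 genes by role, of which 61 were in the table and 56 passed the filter. Between dexamethasone + EPC-EVs and dexamethasone, 22 were higher, 9 were lower and 25 were not called by edgeR, beside 20.9% higher and 18.9% lower over all genes. Their median log2 fold change was 0.28, beside 0.01 over all genes. The list of latency and activation genes had 10 members higher and 0 lower among 14 tested, with a median of 0.76, against the same 20.9% and 18.9%. Itgb5, an integrin subunit that binds latent TGF-beta with the alpha-v subunit, rose from 147 ± 18.2 to 661 ± 89.8 CPM (SD, n = 2 libraries per group), a log2 fold change of 2.16. Emilin1, a matrix glycoprotein that restrains processing of the TGF-beta precursor, rose by 1.76, Mmp14, a membrane protease, by 1.54, and Furin, which cleaves the precursor, by 1.27 on the log2 scale. With the GC trend removed these values were 1.56 for Itgb5, 0.84 for Emilin1, 1.14 for Mmp14 and 0.78 for Furin, and each was called in every alternative. The integrin genes Itgb1 (0.22) and Itgb8 (-0.51), and Fbn1 (-0.17) and Ltbp4 (-0.02), were not called. With the GC trend removed Ltbp4 was called lower (-1.03) and Itgb1 higher (0.52), Itgb8 turned to 0.34 and Ltbp3 from 0.51 to -0.18, and Ltbp3 and Thbs1 were no longer called, so the count of 0 lower depended on that trend.

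Among other receptors and receptor regulators, 1 of 10 was higher and 2 were lower, beside 39.8% of all genes called. Nedd4l, a ubiquitin ligase of activated SMAD2 and SMAD3, fell from 127 ± 18.9 to 74.9 ± 2.54 CPM (SD, n = 2 libraries per group), a log2 fold change of -0.78. Usp15, a deubiquitinase that acts on the type I receptor complex, had -0.49, and Smurf1, a ubiquitin ligase that SMAD7 brings to the receptor, had 0.49. With the GC trend removed Usp15 turned to 0.15 and Smurf1 to 0.01, neither called, and Nedd4l stayed called at -0.52. Nedd4l was not called without dexamethasone replicate 2 (adjusted p = 0.0563 by edgeR).

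Among the SMADs and their nuclear partners, 2 of 12 were higher and 2 were lower, again beside 39.8% of all genes. Smad7, an inhibitory SMAD that the pathway itself induces, had 21.9 ± 12.0 CPM in dexamethasone and 51.0 ± 5.21 CPM in dexamethasone + EPC-EVs (SD, n = 2 libraries per group), a log2 fold change of 1.21. It was not called with the GC trend removed (0.62, adjusted p = 0.121) or without dexamethasone replicate 2 (adjusted p = 0.0685 by edgeR). Smad6, the other inhibitory SMAD, falls outside the rule for named genes because of its low level and was named after its values were seen. It was counted 2 and 8 times in dexamethasone and 134 and 164 times in dexamethasone + EPC-EVs. The gene was called in all alternatives (log2 fold change 3.94, and 3.05 with the GC trend removed). Smad6 passed the filter only through the libraries where it was high, so this call carries no weight as support, and the count of higher genes includes it. In control it was counted 1 and 23 times, and dexamethasone + EPC-EVs against control did not call it (2.47, adjusted p = 0.0529 by edgeR). Smad3, which carries the signal from the type I receptor, fell from 175 ± 3.49 to 109 ± 16.3 CPM, a log2 fold change of -0.70, and Trim33, which binds SMAD2 and SMAD3 and can ubiquitinate SMAD4, had -0.98. Both stayed called with the GC trend removed, at -1.01 for Smad3 and -0.52 for Trim33. Smad2 (0.0015) and Smad4 (0.22) were not called, with 95% intervals of -0.41 to 0.41 and -0.19 to 0.62.

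Among the other target genes, 8 of 17 were higher and 3 were lower, against 20.9% and 18.9% of all genes. Postn, which encodes the matrix protein periostin, rose from 1227 ± 108 to 12530 ± 1622 CPM (SD, n = 2 libraries per group), a log2 fold change of 3.33. Acta2 and Tagln, genes of the smooth muscle contractile apparatus, rose by 2.83 and 2.81, and Junb, which encodes an AP-1 factor, by 2.59 on the log2 scale. All 4 were called in every alternative, and with the GC trend removed they had 4.64 for Postn, 2.81 for Acta2, 2.58 for Tagln and 1.56 for Junb. The lower targets, named after their values were seen, were Snai2 (-1.44), a transcription factor, Cdkn1a (-1.38), which encodes the cell cycle inhibitor p21, and Bhlhe40 (-0.82), a transcriptional repressor. Removal of the GC trend gave -0.90, -1.78 and -0.85, all called. Fn1, the fibronectin gene, had a log2 fold change of 0.18 (95% interval -0.07 to 0.42) and was not called, and turned to -0.11 with the GC trend removed. Targets of the list thus stood on both sides of 0, and many of them, Junb and Cdkn1a among them, also respond to other signals. Ctgf, the older symbol of Ccn2 and also named after its values were seen, was among the higher targets at 1.52, with the same value once the GC trend was removed. It stood at 21.6 CPM in control, 8.62 CPM in dexamethasone and 25.05 CPM in dexamethasone + EPC-EVs, and was called neither between dexamethasone and control (-1.32) nor between dexamethasone + EPC-EVs and control (0.20).

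All 3 genes for ligand-binding matrix proteins were called, 1 higher and 2 lower, where 39.8% of all genes were called. Dcn, which encodes decorin, a proteoglycan that binds TGF-beta, fell from 500 ± 7.78 to 68.5 ± 33.8 CPM (SD, n = 2 libraries per group), a log2 fold change of -2.89. Bgn, which encodes the related biglycan, had -0.60 and was not called without dexamethasone replicate 2 (adjusted p = 0.0721 by edgeR). Fmod, the gene of fibromodulin, had 0.77. Removal of the GC trend gave -1.69 for Dcn, -0.76 for Bgn and 0.41 for Fmod, all called.

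**Figure D5:**
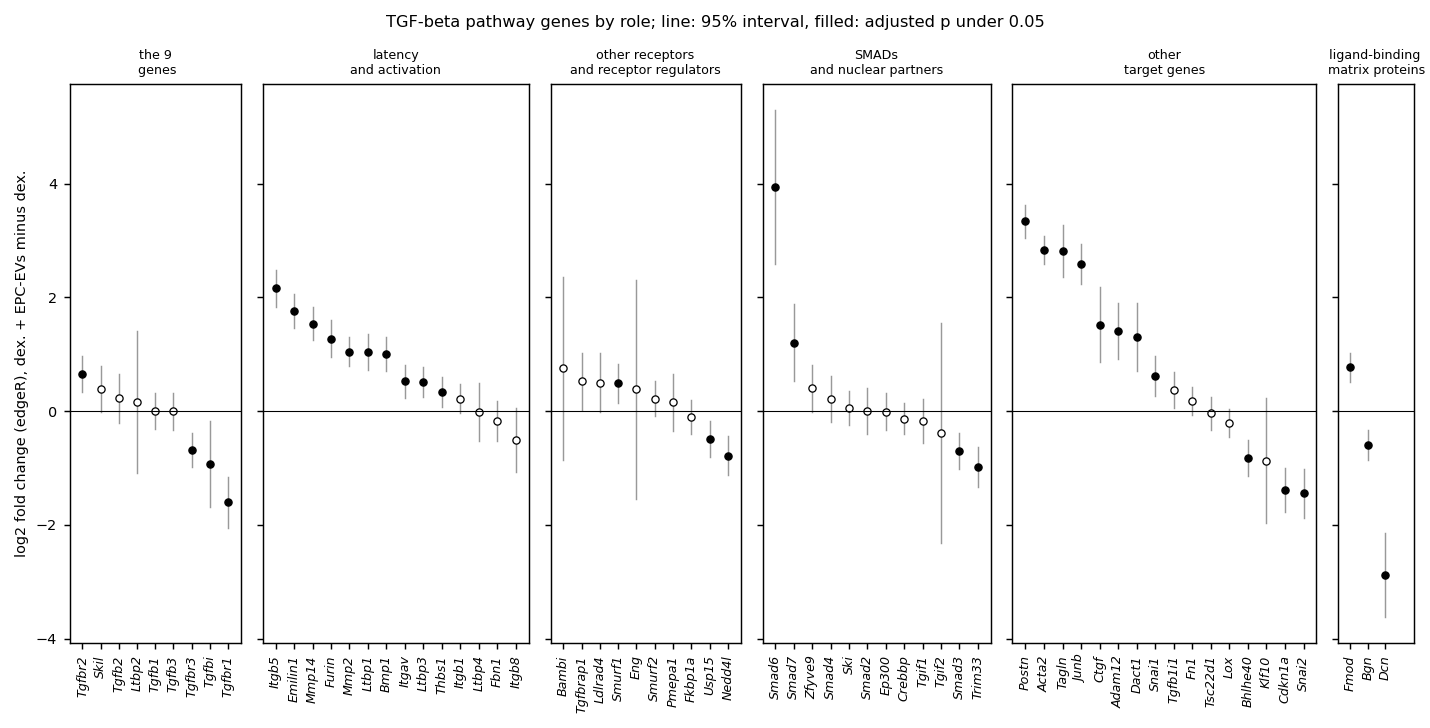
Log2 fold change between dexamethasone + EPC-EVs and dexamethasone for the 9 genes and for other pathway genes of the lists, grouped by role and ordered by value (points), with 95% intervals from edgeR (lines); filled points had an adjusted p under 0.05; dex. is dexamethasone. The latency and activation list holds 10 filled points above 0 and 0 below, and the other target genes hold 8 above and 3 below.

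Between dexamethasone and control, 0 of the 53 pathway genes tested were called by edgeR, 8 had an unadjusted p under 0.05 beside 10.9% of all genes, limma called 0, and DESeq2 called 1, Thbs1, which encodes the latent TGF-beta activator thrombospondin-1, at 1749 CPM in control and 1183 CPM in dexamethasone. Without control replicate 1, 21 of 56 were called, beside 2200 of 13708 genes in all. That fit has a single control library and takes the spread from the dexamethasone pair, and without control replicate 2 the same kind of fit called 1.

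The third comparison, dexamethasone + EPC-EVs against control, shows the combined treatment beside untreated cells. Of the 9 genes 4 were called, Tgfb1 and Tgfbr2 higher and Tgfbr1 and Tgfbr3 lower, against 36.4% of 13511 genes, 19.1% higher and 17.2% lower. The groups did not overlap for 5 of the 9 (these 4 and Tgfb3), against 73.0% of all genes. Tgfb1, at 80.5 and 68.3 CPM in control and 122 and 121 CPM in dexamethasone + EPC-EVs, had a log2 fold change of 0.69 ± 0.20 (SE, adjusted p = 0.0267 by edgeR). Its size was close to the 0.68 between dexamethasone and control, where it was not called, and the difference between these comparisons was measured directly by dexamethasone + EPC-EVs against dexamethasone, at -0.00068. After removal of the GC trend Tgfb1 had 0.13 against control (adjusted p = 0.666), beside 0.39 between dexamethasone and control, and it was not called without dexamethasone + EPC-EVs replicate 1 or replicate 2 (adjusted p = 0.122 and 0.121).

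Tgfbr1 had a log2 fold change of -1.92 ± 0.25 (SE, 95% interval -2.49 to -1.35, adjusted p = 0.000958 by edgeR), called in 15 of 15 alternatives and the only member past the study's threshold, which 20.7% of all genes passed. It was read at 145 and 142 CPM in control and 46.6 and 30.4 CPM in dexamethasone + EPC-EVs, with the dexamethasone libraries between them, and with the GC trend removed it had -1.04 (adjusted p = 0.0121). Tgfbr3 had -0.71 ± 0.18 (SE, adjusted p = 0.0166), which was lost without dexamethasone + EPC-EVs replicate 1 (adjusted p = 0.170). Tgfbr2 had 0.58 ± 0.19 (SE, adjusted p = 0.0407), lost in 5 of 15 alternatives, among them limma (adjusted p = 0.0545), the removal of the GC trend (adjusted p = 0.0713) and the absence of dexamethasone + EPC-EVs replicate 1 or replicate 2 (adjusted p = 0.282 and 0.116). Tgfb2 (0.11), Tgfb3 (0.10), Tgfbi (-0.67), Skil (-0.14) and Ltbp2 (0.39) were not called, and Skil turned to 0.78 with the GC trend removed and was then called (adjusted p = 0.0438), as was Tgfbi at -1.35 (adjusted p = 0.0338).

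Of the 56 pathway genes, 19 were higher and 9 lower than in control, against 19.1% and 17.2% of all genes, with a median log2 fold change of 0.26 beside 0.02 over all genes. In the latency and activation list 8 were higher and 0 lower, led by Emilin1 (2.50), Itgb5 (2.33), Furin (1.89) and Mmp14 (1.82), which all stayed called with the GC trend removed, whereas Ltbp1, Ltbp3, Bmp1 and Mmp2 did not and Ltbp4 turned from 0.63, not called, to -1.11 and was then called lower. Among the receptor regulators, Nedd4l (-0.82) and Usp15 (-0.66) were lower and Smurf1 (0.66) was higher. None of these 3 was called once the GC trend was removed, and Usp15 turned to 0.13 and Smurf1 to -0.26. Smad7 (1.62) was higher and Trim33 (-1.13) and Smad3 (-0.80) were lower, and with the GC trend removed only Smad3 of these 3 was called. Tgif2, a corepressor gene named after its values were seen, was also higher, though not with the GC trend removed (adjusted p = 0.0630 by edgeR). It was counted 0 times in both control libraries, 6 and 29 times in dexamethasone, and 24 and 27 times in dexamethasone + EPC-EVs. Against dexamethasone its log2 fold change was -0.39, not called. With 0 counts in control, Tgif2 passed the filter only through the libraries where it was high, so this call carries no weight as support. Of the targets 7 were higher and 3 lower, with Postn (2.88), Junb (2.74), Acta2 (2.66) and Tagln (2.45) in the lead, and Snai2 (-1.81), Cdkn1a (-1.69) and Klf10 (-1.42) lower, the last 3 named after their values were seen. Dcn (-3.16) and Bgn (-0.79) were lower and Fmod (1.08) was higher, Fmod not with the GC trend removed (adjusted p = 0.239 by edgeR). Without dexamethasone + EPC-EVs replicate 1 or replicate 2, Nedd4l, Usp15 and Smurf1 were not called, and nor were Bgn without replicate 1 (adjusted p = 0.0569) and Smad3 without replicate 2 (adjusted p = 0.151). Over the 56 genes the removal of the GC trend changed the split from 19 higher and 9 lower to 12 higher and 10 lower.

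Genes whose pattern was most like that of a member were read by Pearson's r of log2 CPM over the 6 libraries among 9211 genes, as a description in which the points share their depth and group. For Tgfbr1 these were Ank3 (r = 0.9995), Gm14412 and Mns1, and 757 genes had an r above 0.95. For Tgfb1 they were Kctd2 (r = 0.990), H2-DMa and Il18bp, and for Tgfbi Pla2g7 (r = 0.986), Heg1 and Kif23, with 35 and 43 genes above 0.95.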

How the data were processed

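RNA-seq libraries of MC3T3-E1 Subclone 14 cells were grouped by the deposited labels, 2 for each of control, dexamethasone and dexamethasone + EPC-EVs. The authors filtered the reads, aligned them to GRCm38 with HISAT2 and deposited counts per gene made with HTSeq 0.6.1, without normalization. Whether the counting used strand is not given in the sources used here, so overlapping genes (Tgfb2, Tgfb3, Tgfbr3 and Ltbp2 among the members) are less certain. The authors also deposited FPKM, which are the same counts scaled by library total and gene length. The deposited transcript table holds no member and was not used.

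Each comparison was fitted to the counts of its 4 libraries with edgeR 4.0.16 (R 4.3.3, TMM normalization, filterByExpr, robust quasi-likelihood test). Calls were made at an adjusted p under 0.05 (Benjamini-Hochberg over every gene in the fit). Standard errors were computed from the F statistic. Alternatives were other normalizations and filters, DESeq2 1.42.0, limma 3.58.1 on log2(FPKM + 1), all 6 libraries in one fit and a replicate block. Further alternatives were mitochondrially encoded genes left out, thinning to the smallest total, and each library left out. A loess trend (span 0.4) on GC content and transcript length was also removed as an alternative. The study's threshold was applied apart from these and is not among the 15 alternatives counted for a gene. The scripts were tested on simulated data. Depth limits genes with few counts; a count of 0 allows up to 3 counts, for counting error only. The members, lists and tests were chosen with earlier results of these data known. Pathway genes were named as up to 4 with the largest change in each list among those called, at a minimum mean of 10 CPM. Gene coordinates are those of GENCODE vM21. The values of 1 target gene of the lists are not reported here, though the counts include it. The sample labels give osteoblast precursors and 72 hours and were followed, although the series text names fibroblasts and a shorter time.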

Additional observations from a re-analysis of the deposited data

How the results depend on the processing

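The direction and the call of Tgfbr1 were the same under all alternatives in the 3 comparisons. Between dexamethasone and control, the 7 calls over all genes became 248 with no filter, 130 with DESeq2, 0 with limma, 1 without mitochondrially encoded genes, 26 with the trend on GC content and length removed and 182 under the study's threshold, and ranged from 9 to 2200 with 1 library left out, the highest without control replicate 1, then 113 without control replicate 2 and 17 without dexamethasone replicate 2. The removal of the trend moved the median of all genes from 0.01 to -0.10. The 9 members then had 0 to 2 calls with 1 library left out, and the pathway lists 3 with no filter, 1 with DESeq2 and 0 to 21 with 1 library left out (1 without control replicate 2). Between dexamethasone + EPC-EVs and dexamethasone, the study's threshold gave 1922 genes, 1 member and 10 pathway genes in place of 5397, 4 and 31, and leaving out 1 library gave 3250 to 4813 genes (lowest without dexamethasone replicate 2), 1 to 5 members and 22 to 36 pathway genes. With the trend removed the split of the members went from 1 higher and 3 lower to 2 higher and 3 lower. Against control, the study's threshold gave 2793 genes, 1 member and 16 pathway genes in place of 4916, 4 and 28, and leaving out 1 library gave 3375 to 6231 genes, 1 to 4 members (1 and 2 without dexamethasone + EPC-EVs replicates 1 and 2) and 20 to 33 pathway genes. With the trend removed the split of the members went from 2 higher and 2 lower to 1 higher and 3 lower.

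The numbers of the replicates were not read as pairs, as the labels name no shared batch. The correlation of the deviations of same-numbered libraries was 0.138, -0.0015 and 0.039 over 9219 genes. With 2 libraries in a group these values cannot exclude a shared batch. With the replicate block the calls over all genes between dexamethasone and control were 43 in place of 7, and the members called were 0, 4 and 4, as without it.

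Log2 fold changes of the 9 genes that turned in sign were not called under the alternative, except Skil against control with the trend removed (adjusted p = 0.0438 by edgeR). Between dexamethasone and control these were Tgfbr3 with library totals (0.0426), limma (0.0414), without control replicate 2 (0.0533) and without dexamethasone replicate 1 (0.0289), in a range of -0.0966 to 0.0533 with 1 library left out, and with the trend removed Tgfb3 (-0.22), Tgfbi (-0.0677) and Ltbp2 (-0.35), which had -0.0453 to 0.59 with 1 library left out, the lowest without control replicate 1. Between dexamethasone + EPC-EVs and dexamethasone they were Tgfb1 with no filter (0.0325), 6 libraries in one fit (0.0182), the replicate block (0.0043) and 1 library left out (-0.10 to 0.13), Tgfb3 with no filter (0.0273), 6 libraries in one fit (0.0127) and 1 library left out (-0.0435 to 0.0633), Ltbp2 with the trend removed (-0.53) and 1 library left out (-0.0846 to 0.40), and Tgfb2 with 1 library left out (-0.13 to 0.54, the lowest without dexamethasone + EPC-EVs replicate 2 and the highest, called, without replicate 1). Against control they were Tgfb3 (-0.54), Skil (0.78) and Ltbp2 (-0.89) with the trend removed, and with 1 library left out Skil (-0.43 to 0.32, the highest without control replicate 2) and Tgfb2 (-0.25 to 0.43, the lowest without dexamethasone + EPC-EVs replicate 2). The cause of these shifts was not tested. With 2 libraries in a group, an exact permutation of 4 libraries cannot give a p below 0.333.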
